A study of Mus musculus with 27 samples.

Results

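The 36 genes described here encode the machinery that licenses and copies DNA and the regulators that commit a cell to S phase. They were chosen by name and read as rows of the deposited table of raw counts, over all 27 libraries. All 36 names were found among the 33924 gene symbols of the table, and all 36 passed the filter on low counts. The series compared mouse thyroid tumor cell lines with and without loss of a SWI/SNF chromatin remodeling subunit, treated with a drug or its vehicle. Each line was grown from a minced tumor. The tumor lines had 4 genotypes with 3 lines each: Braf(V600E) + Arid1a KO, Braf(V600E) + Arid2 KO, Braf(V600E) + Smarcb1 KO, and Braf(V600E) with no such knockout (KO), called Braf lines here. Every tumor line thus carries the mutant kinase, including those without a KO. Each line has 1 library grown for 8 days with CH5126766, called CKI, an inhibitor of RAF and MEK kinases, at 300 nM, and 1 library grown with vehicle. The treatment label mentions bovine TSH, and its wording does not settle whether vehicle cultures received it as well. The remaining 3 libraries are labelled wildtype (WT) and untreated. The labels used here name neither the promoter behind the alleles, nor the age of the animals, nor the passage of the lines.

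Replication starts in G1, when Cdc6 and Cdt1 bring the Mcm2 to Mcm7 helicase to origins already marked by the origin recognition complex. Mcm10 and the GINS complex help to turn the loaded helicase on, primase and the polymerases make the new strands, and the sliding clamp Pcna is opened and closed by the Rfc loader. Many of these genes are targets of E2F transcription factors, which RB proteins restrain until cyclin D and cyclin E kinases phosphorylate RB. ERK, the last kinase below RAF and MEK, is known to raise cyclin D1.

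Levels are given as CPM, the usual depth-scaled count, with library totals rescaled by edgeR's TMM factors. Changes are log2 changes ± SE from edgeR's quasi-likelihood fit, and a gene is called when its Benjamini-Hochberg adjusted p over all genes tested is under 0.05. Without a block, the error in these tests is how far libraries lie from their group mean, pooled over all groups of a fit. Each group of tumor libraries holds 3 cell lines. The same lines stand in both arms of CKI against vehicle, and the fit without a block ignores this pairing. Fits with the cell line as a block compare CKI and vehicle within each line. Their error is how far that change varies between lines. Either kind of variation is technical as far as lines are not of separate origin. Total counts lay between 18417255 and 27257703 in 25 libraries. The CKI libraries of the Smarcb1 KO lines BS53958 and BS53965 held 11684983 and 2884130 counts. Smarcb1 averaged 1.6 ± 1.58 CPM in Smarcb1 KO lines under CKI and 77.4 ± 14.3 CPM in Braf lines under CKI (SD, n = 3 each). Arid1a averaged 80.5 ± 13.8 CPM in Arid1a KO lines and 132 ± 3.86 CPM in Braf lines, both in vehicle (SD, n = 3 each). Arid2 averaged 94 ± 14.3 CPM in Arid2 KO lines and 97.6 ± 10.2 CPM in Braf lines in vehicle (SD, n = 3 each), so the count of the whole gene does not check that label. Summed over 7 thyroid follicular markers, the tumor line libraries held between 33 and 982 CPM, against 229000 to 348000 CPM in the WT libraries. Where bulk RNA differs, fewer cells of a type and less RNA per cell cannot be told apart.

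The replication genes were lower under CKI. Averaged over the 4 genotypes, 27 of the 36 genes fell and 0 rose, while 13.6% of all 15634 genes tested fell. The median change of the 36 genes was -0.70, beside 0.03 for all genes tested, and all 36 estimates were below 0. The 9 genes that did not pass were Tk1, Ccne1, Rrm2, Gins1, Lig1, Pold1, Tyms, Prim2 and Rrm1, with changes between -0.73 and -0.36. By role, 8 of 8 origin licensing genes fell, as did 6 of 6 genes of the clamp, its loader and single-strand binding, and 3 of 3 chromatin genes. With the cell line as a block, 32 of 36 genes fell, beside 21% of all genes tested. The block added Gins1, Pold1, Tyms, Tk1 and Ccne1 to the genes called. Leaving out the Arid2 KO line AB51189 lowered the count to 18 genes, and leaving out the Arid2 KO line AB52980 raised it to 35. Both counts are given without the share of all genes called in those fits.

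**Figure D1:**
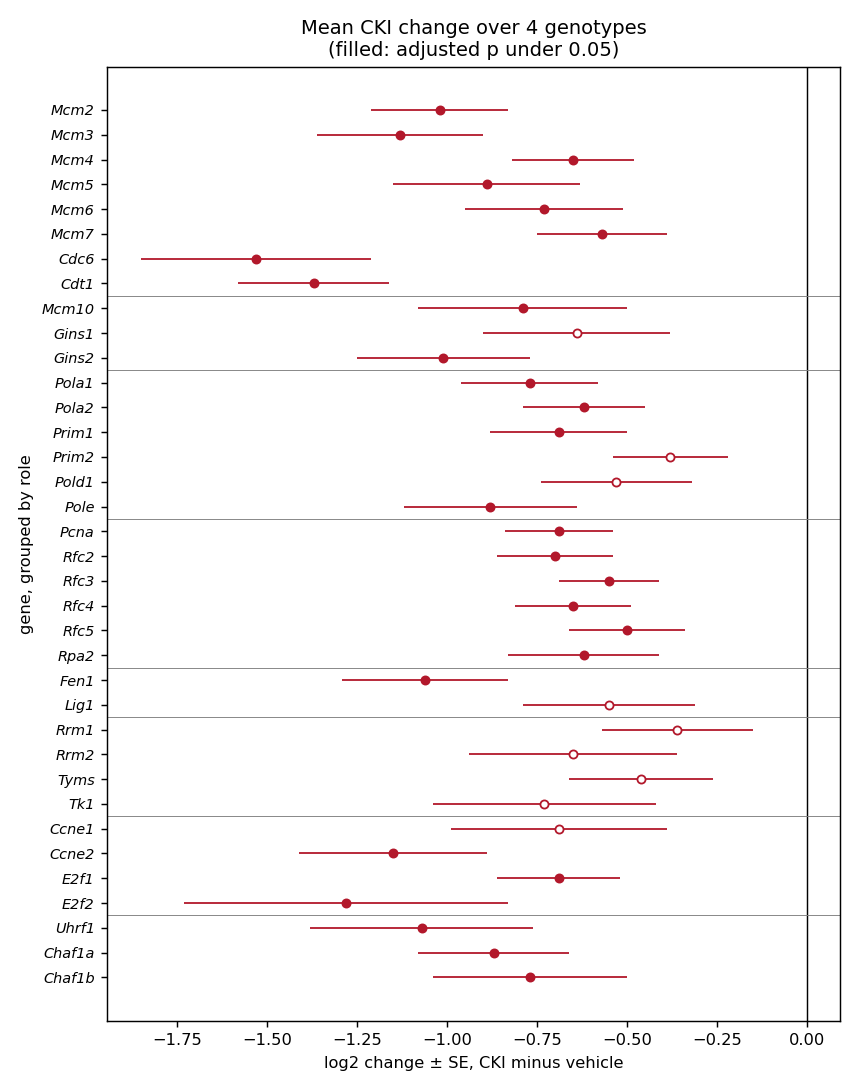
Log2 change under CKI relative to vehicle, averaged over the 4 genotypes, for each of the 36 genes grouped by role. Points are edgeR estimates, bars are SE, and filled points mark an adjusted p under 0.05; every point lies left of 0, and Cdc6 at -1.53 lies farthest left.

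Some markers of cell types moved with CKI as well. The summed level of 5 fibroblast markers lay between 198 and 479 CPM in Arid2 KO lines under CKI and between 5.86 and 12 CPM in vehicle. Under CKI, Col1a1 alone gave 150, 378 and 452 CPM in AB51189, AB52980 and AB55694. Pdgfra had 8.13, 2.55 and 5.83 CPM under CKI in these lines, against 2.64, 5.17 and 7.79 CPM in vehicle. In the Braf lines B47275, B48051 and B52482 the median change of the 5 markers was 3.63, -0.86 and 3.36. Their sum lay between 21.5 and 1880 CPM under CKI and between 4.59 and 96.5 CPM in vehicle, and these ranges overlapped. In Arid1a KO lines this sum lay between 872 and 4370 CPM under CKI and between 653 and 2460 CPM in vehicle. In Smarcb1 KO lines it lay between 13.9 and 105 CPM under CKI and between 5.93 and 666 CPM in vehicle. Pdgfra gave 105 CPM under CKI and 666 CPM in vehicle in BS53965. Between 1 and 5 of the 5 markers exceeded 1 CPM in any tumor line library. Averaged over genotypes, 3 of 5 fibroblast, 2 of 3 leukocyte and 2 of 6 thyroid follicular markers tested rose, beside 2121 of all 15634 genes tested. The leukocyte sum was low, at 6.5 CPM or less in every tumor line library in vehicle. Under CKI it was 9.27 CPM or less except in B47275, where Cd74 gave 105 of 108 CPM. Of the endothelial, skeletal muscle and epithelial markers, edgeR called 0 of 4, 0 of 3 and 0 of 5, with 1, 0 and 1 at an unadjusted p under 0.05. In Arid1a KO lines the sum of 5 epithelial markers was nonetheless 19.2, 13.2 and 9.02 CPM under CKI, against 335, 329 and 316 CPM in vehicle, most of it Krt8 and Krt18. These groups did not overlap, all 5 estimates were below 0, and edgeR called 0 of 5 within this genotype, with 2 at an unadjusted p under 0.05, and 3 with the line as a block. Whether these markers reflect a change in cell types, and what part that had in the fall of the replication genes, was not tested.

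The 8 licensing genes had a median change of -0.96. Cdc6, the ATPase that helps to load the helicase, had 1.81, 8.25 and 6.09 CPM in the Arid1a KO lines BA45198, BA47473 and BA49112 under CKI, against 11.4, 28.2 and 33.7 CPM in vehicle. In the Arid2 KO lines AB51189, AB52980 and AB55694 it had 2.9, 23 and 9.18 CPM under CKI, against 49.9, 14.4 and 16.7 CPM in vehicle. The Arid1a KO groups did not overlap, whereas the Arid2 KO groups did, since AB52980 was higher under CKI. In the Smarcb1 KO lines BS53736, BS53958 and BS53965 Cdc6 had 10.1, 22.1 and 19 CPM under CKI, against 37.2, 38.3 and 45.5 CPM in vehicle. In the Braf lines B47275, B48051 and B52482 it had 6.53, 6.33 and 5.88 CPM under CKI, against 21.8, 16.7 and 15.3 CPM in vehicle. Every CKI library lay below every vehicle library within each of these genotypes. Averaged over genotypes, Cdc6 changed by -1.53 ± 0.32 (adjusted p = 0.00255), and it was lower in 11 of 12 lines.

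Cdt1, which works with Cdc6 and is destroyed or blocked once S phase begins, had the smallest adjusted p of the 36 genes. In the same order of lines, it had 5.25, 14.4 and 9.87 CPM in Arid1a KO lines under CKI, against 29.1, 34.8 and 52 CPM in vehicle. Arid2 KO lines had 9.99, 36.9 and 15.3 CPM under CKI, against 74.7, 48.3 and 39.2 CPM in vehicle. Neither pair of groups overlapped, and Cdt1 was the only one of the 36 genes with this separation in Arid2 KO lines. Smarcb1 KO lines had 68.8, 121 and 81.7 CPM under CKI, against 122, 165 and 106 CPM in vehicle. Braf lines had 11.7, 9.12 and 11.2 CPM under CKI, against 40, 32.5 and 26.4 CPM in vehicle. The Smarcb1 KO groups overlapped and the Braf groups did not. Cdt1 changed by -1.37 ± 0.21 on average (adjusted p = 0.000356) and was lower in 12 of 12 lines.

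Of the helicase subunits, Mcm3 had the lowest estimate. It had 19.5, 55.7 and 43.4 CPM in Arid1a KO lines under CKI, against 104, 150 and 125 CPM in vehicle, and 44.8, 37.2 and 39.2 CPM in Braf lines under CKI, against 126, 92.5 and 79.7 CPM in vehicle. In Smarcb1 KO lines it had 83.3, 190 and 127 CPM under CKI, against 245, 220 and 259 CPM in vehicle. These 3 genotypes showed no overlap between CKI and vehicle. In Arid2 KO lines, where the groups overlapped, Mcm3 had 27.8, 128 and 59.3 CPM under CKI, against 180, 84.8 and 93.6 CPM in vehicle. The mean changes of the 6 subunits were -1.02 ± 0.19 for Mcm2 (adjusted p = 0.00103), -1.13 ± 0.23 for Mcm3 (adjusted p = 0.00195), -0.65 ± 0.17 for Mcm4 and -0.89 ± 0.26 for Mcm5. Mcm6 changed by -0.73 ± 0.22 and Mcm7 by -0.57 ± 0.18 (adjusted p = 0.0277). Mcm7 shares exon sequence with Ap4m1 and Cops6 on the opposite strand, and its counts may hold reads of either.

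**Figure D2:**
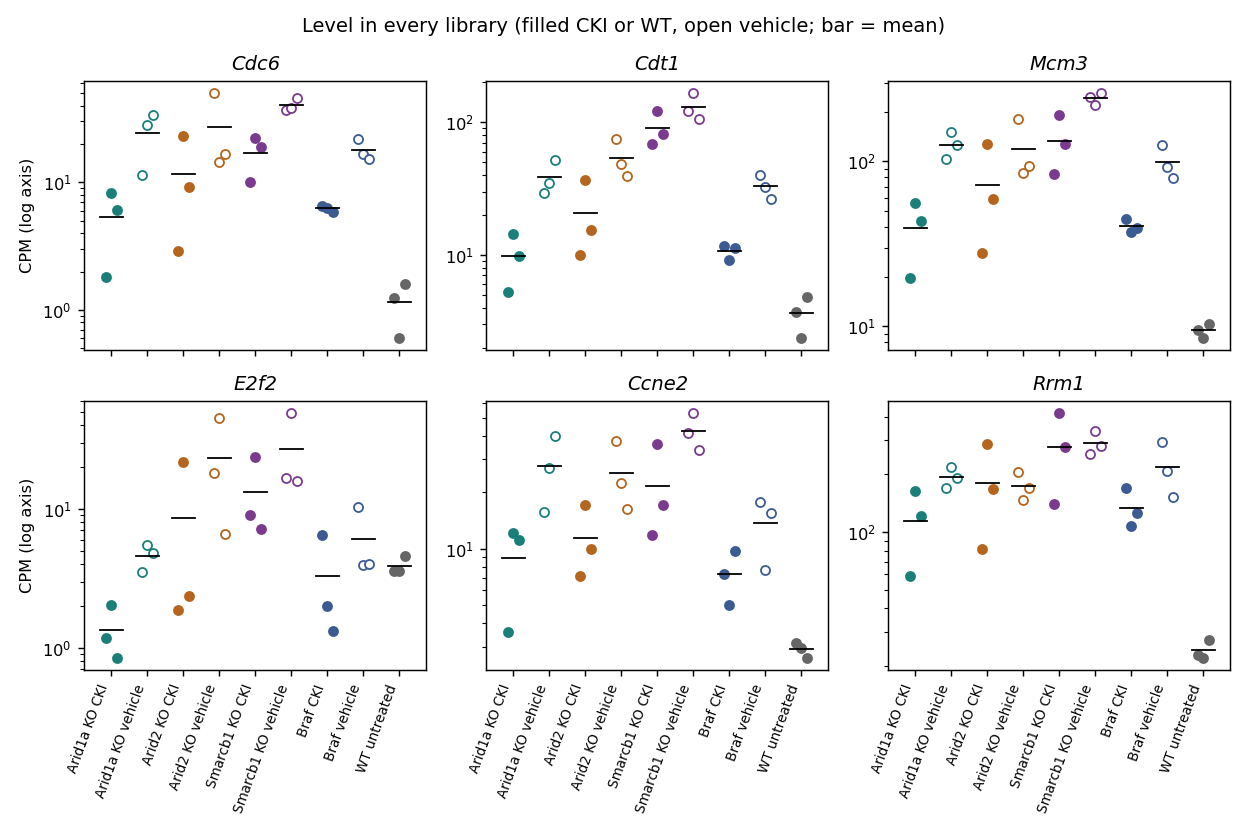
CPM in every library on a log axis for Cdc6, Cdt1, Mcm3, E2f2, Ccne2 and Rrm1. Filled points are CKI or WT libraries, open points vehicle libraries, and bars group means (n = 3); the CKI point of Arid2 KO line AB52980 is the highest of its group for these 6 genes, at 36.9 CPM for Cdt1 and 289 CPM for Rrm1.

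The start regions of the 36 genes were read for E2F motifs. RefSeq windows that span 250 bases before and 50 bases after a gene's start (GRCm38.p6, a build other than the mm9 used for the counts) were found for 29 of the 36 genes. The motif was any of TTTCCCGC, TTTCGCGC, TTTGCCGC and TTTGGCGC on either strand, and overlapping matches were each counted. It was present for 12 of these 29 genes (41.4%), for 10 of 30 genes of a second list of replication genes (33.3%) and for 704 of 27025 genes of the whole set of windows (2.6%). Both lists were chosen by name and many such genes are known E2F targets, so these shares do not test the change under CKI. The median GC content was 58.3% in windows of the 36 genes and 52.7% in all windows. The 12 genes were Mcm3, Mcm5, Mcm6, Mcm7, Cdc6, Cdt1, Pola1, Pold1, Rfc3, Lig1, E2f2 and Uhrf1, and they include 6 of the 7 licensing genes with a window, since Mcm4 had none. Stretches from 6 genes that fell are shown 5' to 3' on the gene's strand, with E2F matches in capitals, to let the reader see how many matches a gene holds and where. For Cdc6 (chr11:98907901-98908150, plus strand), Mcm6 (chr1:128359706-128359955, minus strand) and Mcm5 (chr8:75109259-75109508, plus strand) they are the 250 bases before the start. For Cdt1 (chr8:122568036-122568064, plus strand), E2f2 (chr4:136172302-136172323, plus strand) and Mcm3 (chr1:20820267-20820296, minus strand) they are short stretches just after it.
Cdc6: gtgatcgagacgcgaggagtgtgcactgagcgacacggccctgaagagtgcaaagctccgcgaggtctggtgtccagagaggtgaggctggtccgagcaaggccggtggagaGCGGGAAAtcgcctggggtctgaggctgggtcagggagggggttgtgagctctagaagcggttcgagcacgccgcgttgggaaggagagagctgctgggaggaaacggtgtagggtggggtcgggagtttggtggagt
Mcm6: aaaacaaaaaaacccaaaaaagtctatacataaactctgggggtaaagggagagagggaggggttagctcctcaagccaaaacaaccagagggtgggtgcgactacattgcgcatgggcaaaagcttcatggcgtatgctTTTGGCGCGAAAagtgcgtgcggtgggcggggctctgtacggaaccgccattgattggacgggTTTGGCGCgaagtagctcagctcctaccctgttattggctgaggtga
Mcm5: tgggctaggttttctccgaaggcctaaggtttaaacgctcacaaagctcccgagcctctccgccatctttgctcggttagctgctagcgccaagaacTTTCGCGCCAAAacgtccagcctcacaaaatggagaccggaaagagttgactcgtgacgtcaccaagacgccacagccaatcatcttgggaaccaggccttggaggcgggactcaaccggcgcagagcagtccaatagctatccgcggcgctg
Cdt1: ggaactaccttTTTGGCGCcatggcgcaa
E2f2: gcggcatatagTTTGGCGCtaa
Mcm3: gtgGCGGGAAAacttgggaagtTTTGGCGC
Mcm6 holds 3 matches, of which a pair overlaps, the Mcm5 pair overlaps too, and Mcm3 holds 2 separate matches. Cdc6, Cdt1 and E2f2 hold 1 each. Of all 18 matches in the 29 genes, 10 lay before the start and 8 after it. The median mean change under CKI was -0.83 in the 12 genes with a match, with a range of -1.53 to -0.53, and -0.69 in the 17 genes without one, with a range of -1.06 to -0.36. These ranges overlapped, and whether the sets differ was not tested. The core of the CHR element of G2/M genes, TTTGAA on either strand, was present for 3 of 29 genes (10.3%) and 20.2% of all genes with a window. CCAAT on either strand was present for 16 of 29 genes (55.2%) and 41.1% of all genes. A match is a description of the letters and not a measured binding site.

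Helicase activation genes fell in 2 of 3 cases. Gins2, a GINS subunit, changed by -1.01 ± 0.24 (adjusted p = 0.0052) and Mcm10, which acts as the helicase is turned on, by -0.79 ± 0.29 (adjusted p = 0.0482). Gins1 did not pass, at -0.64 ± 0.26 (adjusted p = 0.0769). Among the polymerases and primase, 4 of 6 fell. Pola1, the catalytic subunit of the polymerase that starts each strand, changed by -0.77 ± 0.19 (adjusted p = 0.00736), and its partner Pola2 by -0.62 ± 0.17. Prim1, the catalytic primase subunit, changed by -0.69 ± 0.19, and the larger subunit Prim2 did not pass, at -0.38 ± 0.16 (adjusted p = 0.0895). Pole, the catalytic subunit of the leading strand polymerase, changed by -0.88 ± 0.24 (adjusted p = 0.0127). Pold1, which does the same for the lagging strand, did not pass, at -0.53 ± 0.21 (adjusted p = 0.0717).

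All 6 genes of the clamp, its loader and single-strand binding fell. Pcna had 61.1, 72.8 and 67.7 CPM in Arid1a KO lines under CKI, against 120, 128 and 112 CPM in vehicle, and 59.5, 78.9 and 67.9 CPM in Braf lines under CKI, against 140, 154 and 95.9 CPM in vehicle. The groups did not overlap in these genotypes. In Arid2 KO lines Pcna had 57.5, 133 and 82.6 CPM under CKI, against 183, 101 and 112 CPM in vehicle. In Smarcb1 KO lines it had 136, 298 and 155 CPM under CKI, against 256, 309 and 263 CPM in vehicle. The groups overlapped in both of these, with AB52980 and BS53958 highest under CKI. Pcna changed by -0.69 ± 0.15 on average (adjusted p = 0.0041), and the counting may have split some of its reads with the pseudogene Pcna-ps2. The loader genes Rfc2, Rfc3, Rfc4 and Rfc5 changed by between -0.70 and -0.50, and Rpa2, which binds single-stranded DNA, by -0.62 ± 0.21 (adjusted p = 0.04). Rfc2, Rfc4 and Rfc5 overlap exons of Lat2, Eif4a2 and Wsb2 on the opposite strand. Such overlaps are found for 11 of the 36 genes, which also include Mcm7, Fen1, Lig1, Pole, Tk1, Ccne2, Gins2 and Chaf1a. The longest were 2758 bases of Gins2 with Gse1 and 2542 bases of Chaf1a with Ubxn6, and Ccne2 shared 474 bases with Ints8. The sources used here do not say whether the counting used strand, so reads from these overlaps cannot be told apart.

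In lagging strand processing, Fen1, the nuclease that trims flaps, changed by -1.06 ± 0.23 (adjusted p = 0.00286). Its counts were low, between 1 and 80 reads per library, and its exons overlap Gm10143 and Tmem258 on the opposite strand. Lig1, the ligase that joins the fragments, did not pass, at -0.55 ± 0.24 (adjusted p = 0.0928).

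Of the nucleotide supply genes, edgeR called 0 of 4 without the block, with 3 at an unadjusted p under 0.05. Rrm1, the large subunit of ribonucleotide reductase, had 58.9, 163 and 121 CPM in Arid1a KO lines under CKI, against 169, 219 and 190 CPM in vehicle, and 169, 107 and 125 CPM in Braf lines under CKI, against 294, 207 and 152 CPM in vehicle. The groups overlapped in Braf lines and not in Arid1a KO lines. In Arid2 KO lines Rrm1 had 81.6, 289 and 168 CPM under CKI, against 205, 147 and 169 CPM in vehicle. In Smarcb1 KO lines it had 140, 418 and 278 CPM under CKI, against 256, 335 and 281 CPM in vehicle. Both pairs of groups overlapped, and the highest value came under CKI in each. The mean change of Rrm1 was -0.36 ± 0.21 (adjusted p = 0.224). The small subunit Rrm2 changed by -0.65 ± 0.29, thymidylate synthase Tyms by -0.46 ± 0.20 and thymidine kinase Tk1 by -0.73 ± 0.31, with adjusted p-values of 0.105, 0.0898 and 0.0873. With the line as a block, Tk1 changed by -0.93 ± 0.27 (adjusted p = 0.0173) and Tyms by -0.52 ± 0.17 (adjusted p = 0.0286), and both passed. Whether this role differed from the others was not tested.

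Of the G1/S regulators, 3 of 4 fell. E2f2, one of the activating E2F factors, had 1.17, 2.04 and 0.851 CPM in Arid1a KO lines under CKI, against 3.51, 5.52 and 4.82 CPM in vehicle. Arid2 KO lines had 1.86, 21.7 and 2.36 CPM under CKI, against 18.1, 45.2 and 6.61 CPM in vehicle. The lines differed widely in E2f2, and within each of them the CKI library was the lower. Smarcb1 KO lines had 8.98, 23.6 and 7.13 CPM under CKI, against 16.7, 49.2 and 15.8 CPM in vehicle. Braf lines had 6.5, 2 and 1.33 CPM under CKI, against 10.4, 3.92 and 4.02 CPM in vehicle. The groups overlapped in all genotypes but Arid1a KO, although E2f2 was lower in 12 of 12 lines. Its mean change was -1.28 ± 0.45 (adjusted p = 0.0413), and -1.44 ± 0.19 with the line as a block (adjusted p = 0.000353).

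Ccne2, a cyclin E, had 3.59, 12.1 and 11.2 CPM in Arid1a KO lines under CKI, against 15.8, 27.1 and 40.1 CPM in vehicle, and was also lower in 12 of 12 lines. In Braf lines it had 7.31, 5.04 and 9.74 CPM under CKI, against 17.7, 7.68 and 15.6 CPM in vehicle, which overlapped. Ccne2 changed by -1.15 ± 0.26 on average (adjusted p = 0.00439). The other cyclin E gene, Ccne1, did not pass, at -0.69 ± 0.30 (adjusted p = 0.0927), and was lower in 9 of 12 lines. E2f1, another activating E2F, changed by -0.69 ± 0.17 (adjusted p = 0.00623). The 3 chromatin genes fell as well. Uhrf1, which carries DNA methylation over to new strands, changed by -1.07 ± 0.31 (adjusted p = 0.0167). The histone chaperone subunits Chaf1a and Chaf1b changed by -0.87 ± 0.21 and -0.77 ± 0.27.

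The change under CKI varied between lines. Each line has 1 library per treatment, so a difference between lines cannot be told from one between libraries. Within a line, changes are differences of log2 CPM with a prior count of 2. Of the 432 gene and line pairs, 377 were lower under CKI and 55 higher. The Arid2 KO line AB52980 gave 32 of the 55, the Smarcb1 KO line BS53958 gave 16, and the other 10 lines together gave 7. In BS53958, 55.6% of the 36 genes were lower, near the 56% of all 15634 genes tested. In AB52980, 11.1% of the 36 genes were lower, beside 49.1% of all genes. In the other 10 lines, between 45.3% and 52.6% of all genes were lower. The median change of the 36 genes was -1.56, -0.77 and -0.87 in the Arid1a KO lines, -1.92, 0.66 and -0.49 in the Arid2 KO lines, -1.19, -0.07 and -0.91 in the Smarcb1 KO lines, and -1.21, -0.98 and -0.47 in the Braf lines. AB51189 had the lowest value of the 12 lines for 23 genes, and AB52980 had the highest for 32 genes. In AB52980 the 4 genes that were lower under CKI were Cdt1 at -0.39, Ccne2 at -0.39, E2f1 at -0.09 and E2f2 at -1.06. Cdt1, Ccne2 and E2f2 were the genes lower in 12 of 12 lines, and the remaining 33 were lower in 9 to 11. The share of all genes lower in 12 of 12 lines is not given here.

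**Figure D3:**
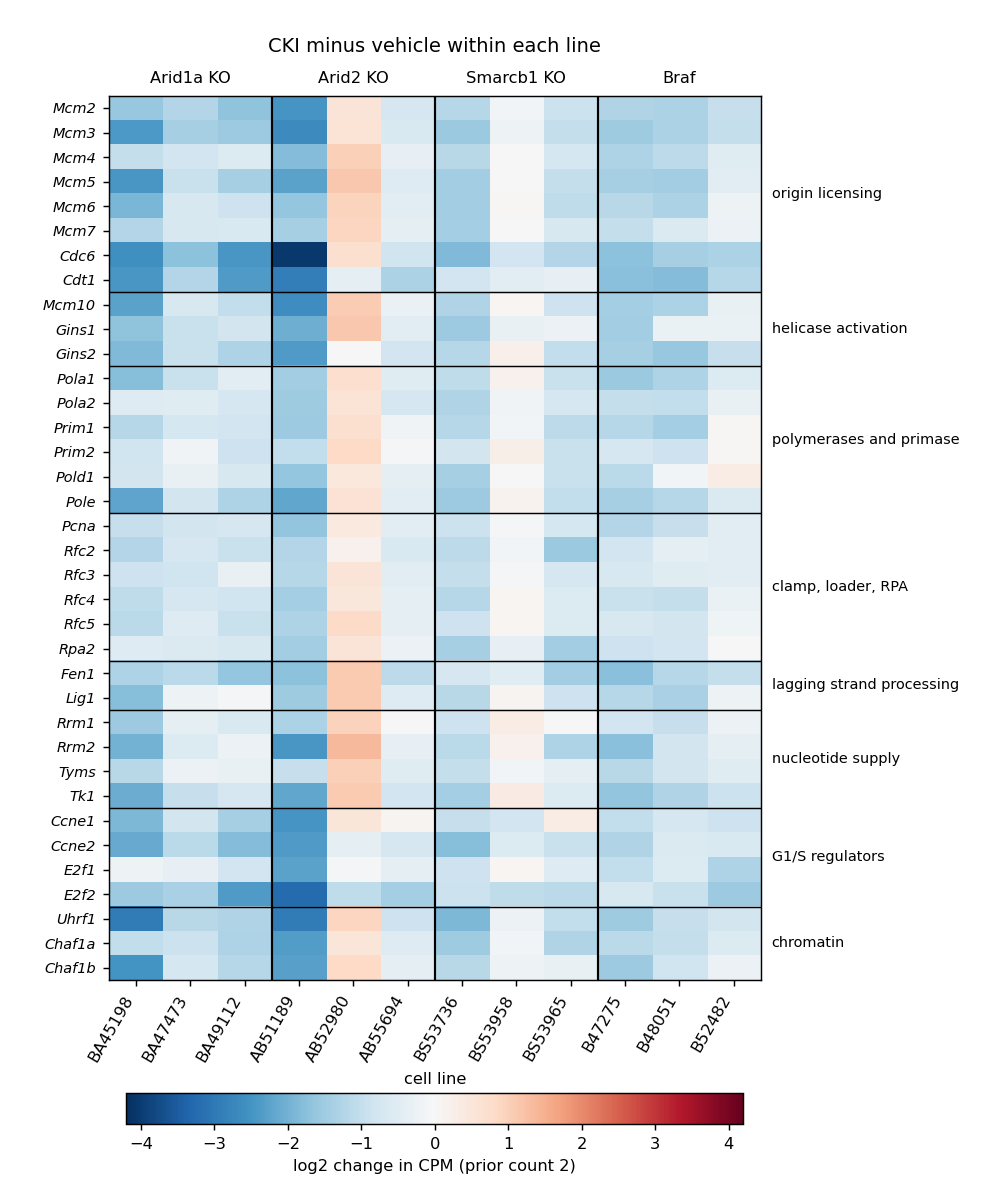
Log2 change in CPM under CKI relative to vehicle for each of the 36 genes (rows, grouped by role) in each of the 12 lines (columns, grouped by genotype). Blue is lower and red is higher under CKI; the AB52980 column is red for 32 genes and the AB51189 column is blue throughout.

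Other gene lists show what else moved in these lines. In AB52980 the median change of 15 ERK output genes, which encode feedback and early targets of the pathway, was -1.06, with 12 of 15 lower under CKI. In BS53958 it was -0.36, with 11 of 15 lower. The ERK output median was below 0 in the other 10 lines too, between -1.55 and -0.32. The 16 mitosis genes had a median of 0.75 in AB52980, with 16 of 16 higher. In BS53958 their median was 0.10, with 14 of 16 higher, where 20 of the 36 replication genes and 56% of all genes tested were lower. It was between -2.77 and -0.81 in the other 10 lines, with 16 of 16 lower in each. AB52980 also held skeletal muscle transcripts, with 1630 CPM summed over 5 markers under CKI and 187 CPM in vehicle. In the other 11 lines this sum lay between 0.465 and 6.92 CPM. Its part in the response of AB52980 was not tested.

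**Figure D4:**
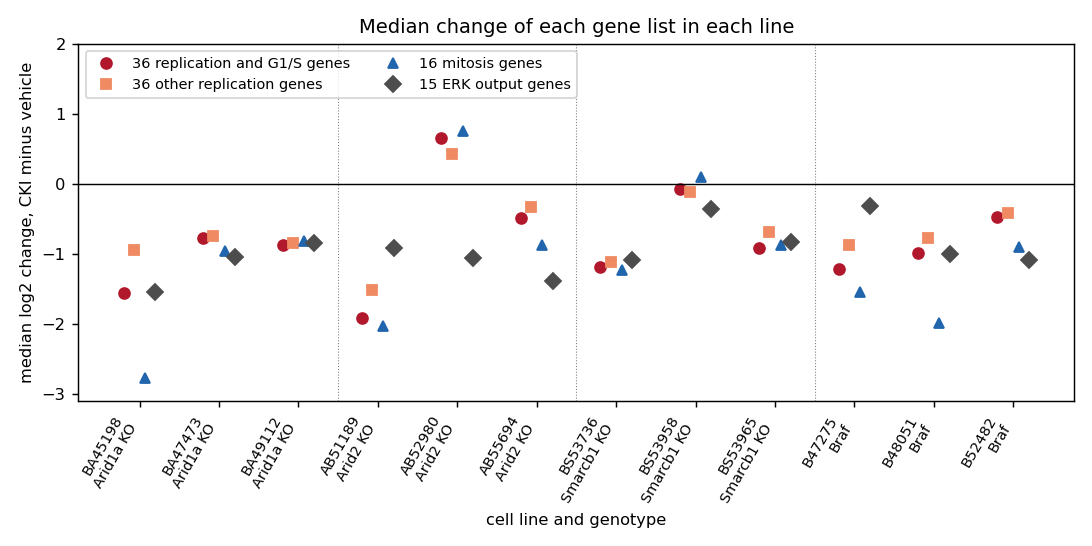
Median log2 change under CKI relative to vehicle of 4 gene lists in each of the 12 lines, grouped by genotype. The ERK output medians (diamonds) lie below 0 in every line, while the replication and mitosis medians lie at 0.66 and 0.75 in AB52980 and near 0 in BS53958.

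Averaged over genotypes, 27 of 36 further replication genes fell and 0 rose, with a median of -0.59. They include Dut, which removes dUTP, at -1.32 ± 0.20 (adjusted p = 0.000329), the helicase Recql4 at -1.31 ± 0.25, the chromatin remodeler Hells at -1.08 ± 0.22 and the histone mRNA binding factor Slbp at -0.71 ± 0.15. Of 16 mitosis genes, 12 fell and 0 rose, with a median of -0.95. Bub1 changed by -1.27 ± 0.29, Cenpf by -1.10 ± 0.27, Top2a by -0.99 ± 0.26 and Ttk by -1.02 ± 0.27. Of 15 ERK output genes, 8 fell and 1 rose. Etv4 changed by -2.75 ± 0.38, Spry4 by -2.45 ± 0.32, Dusp6 by -1.46 ± 0.22 and Etv5 by -1.43 ± 0.18. Of 29 genes that control the G1/S step, 9 fell and 6 rose, while 2132 of all 15634 genes tested fell and 2121 rose. Ccnd1, cyclin D1, changed by -1.93 ± 0.30 (adjusted p = 0.000329). It had 281, 270 and 510 CPM in Arid1a KO lines under CKI, against 1520, 1680 and 2270 CPM in vehicle, and 604, 1490 and 384 CPM in Braf lines under CKI, against 2130, 2570 and 3280 CPM in vehicle. In AB52980 it had 477 CPM under CKI, against 2440 CPM in vehicle, and in BS53958 it had 1880 CPM under CKI, against 1980 CPM in vehicle. The cyclin D gene Ccnd3 rose by 0.95 ± 0.15 (adjusted p = 0.000347), while E2f4 and E2f5, which mostly work as repressors, fell by 0.55 ± 0.11 and 0.53 ± 0.10.

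Within a genotype, edgeR called replication genes in Arid1a KO lines. There 5 of 36 genes fell, beside 6.84% of all genes tested, and these were Cdt1 at -1.96 ± 0.44 (adjusted p = 0.00865), Mcm2 at -1.48 ± 0.38 (0.0165), Mcm3 at -1.66 ± 0.46 (0.0251), Cdc6 at -2.17 ± 0.65 (0.0361) and Fen1 at -1.45 ± 0.45 (0.0414). Without BA45198 or without BA49112, 0 remained called, and without BA47473 there was 1. The share of all genes called in those fits is not given. With the line as a block 12 genes fell, beside 15.3% of all genes. DESeq2 called 9, and its counts here are given without the share of all genes called. In Braf lines edgeR called 0 of 36 genes, beside 0% of all genes, with 17 at an unadjusted p under 0.05, and DESeq2 called 1. In Arid2 KO lines edgeR called 0, beside 0.0448% of all genes, with 3 at an unadjusted p under 0.05, and DESeq2 called 1. In Smarcb1 KO lines edgeR called 0, beside 0.0064% of all genes, with 1 at an unadjusted p under 0.05, and DESeq2 called 0. With the line as a block the counts were 0 in Braf lines (1.06% of all genes), 1 in Arid2 KO lines (2.76%) and 0 in Smarcb1 KO lines (0.569%). The gene in Arid2 KO lines was E2f2, at -1.90 ± 0.39 (adjusted p = 0.0226).

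The medians of the 36 genes were -1 in Arid1a KO lines, -0.42 in Arid2 KO lines, -0.59 in Smarcb1 KO lines and -0.90 in Braf lines, while those of all genes lay between 0 and 0.03. Every CKI library lay below every vehicle library for 28 of the 36 genes in Arid1a KO lines (22.7% of all genes), 1 in Arid2 KO lines (9.17%), 8 in Smarcb1 KO lines (5.46%) and 25 in Braf lines (9.02%). Whether the response to CKI differed in a KO relative to Braf was itself tested. A difference was called for 0 of 36 genes with each KO by edgeR and by DESeq2, and 0 of 36 had an unadjusted p under 0.05. Among all genes 0% were called in each of these 3 comparisons. With the line as a block, 0 of 36 genes were called with each KO. Of all 15634 genes, the block called 5 lower and 18 higher for Arid1a KO, 4 lower and 1 higher for Smarcb1 KO, and 0 for Arid2 KO. Without the block, the median difference in response was -0.15 for Arid1a KO, 0.42 for Arid2 KO and 0.38 for Smarcb1 KO. For Cdt1, the difference in response was 1.09 ± 0.60 in Smarcb1 KO (unadjusted p = 0.0837), with a change of -0.53 ± 0.42 in Smarcb1 KO lines and -1.62 ± 0.43 in Braf lines.

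Loss of Smarcb1 came with higher levels of the replication genes. Under CKI, 20 of 36 genes were higher in Smarcb1 KO lines than in Braf lines and 0 were lower, beside 10.1% of all genes called higher. The median difference was 1.38, beside -0.05 for all genes. In vehicle, 9 of 36 genes were higher and 0 lower, beside 6.93% of all genes, with a median of 1.05. The 9 were Cdt1, Pola2, Pold1, Pcna, Rfc4, Rpa2, Ccne2, Uhrf1 and Chaf1a. The groups did not overlap for 28 genes under CKI (14.7% of all genes) and for 32 genes in vehicle (16.7%), with Smarcb1 KO higher in each.

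Cdt1 had the largest difference of the 36 genes under CKI. Its values of 68.8, 121 and 81.7 CPM in Smarcb1 KO lines under CKI compare with 11.7, 9.12 and 11.2 CPM in Braf lines under CKI, a difference of 3.07 ± 0.46 (adjusted p = 0.000388). In vehicle the difference was 1.98 ± 0.43 (adjusted p = 0.00576). The treated Smarcb1 KO libraries also lay above the vehicle libraries of Braf lines, which had 40, 32.5 and 26.4 CPM. Uhrf1 had 72.8, 231 and 119 CPM in Smarcb1 KO lines and 34.7, 23.7 and 33.2 CPM in Braf lines under CKI, and differed by 2.20 ± 0.64 (adjusted p = 0.0219). Pola1 differed by 1.68 ± 0.39 under CKI (adjusted p = 0.00759), Pola2 by 1.47 ± 0.36 and Pcna by 1.51 ± 0.31 (adjusted p = 0.00393). The loader genes Rfc3 and Rfc5 did not pass, at 0.17 ± 0.28 and 0.55 ± 0.32 under CKI, whereas Rfc4 passed at 1.30 ± 0.32 (adjusted p = 0.0103). Of the nucleotide supply genes only Tyms passed, at 1.24 ± 0.40 under CKI (adjusted p = 0.0335).

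**Figure D5:**
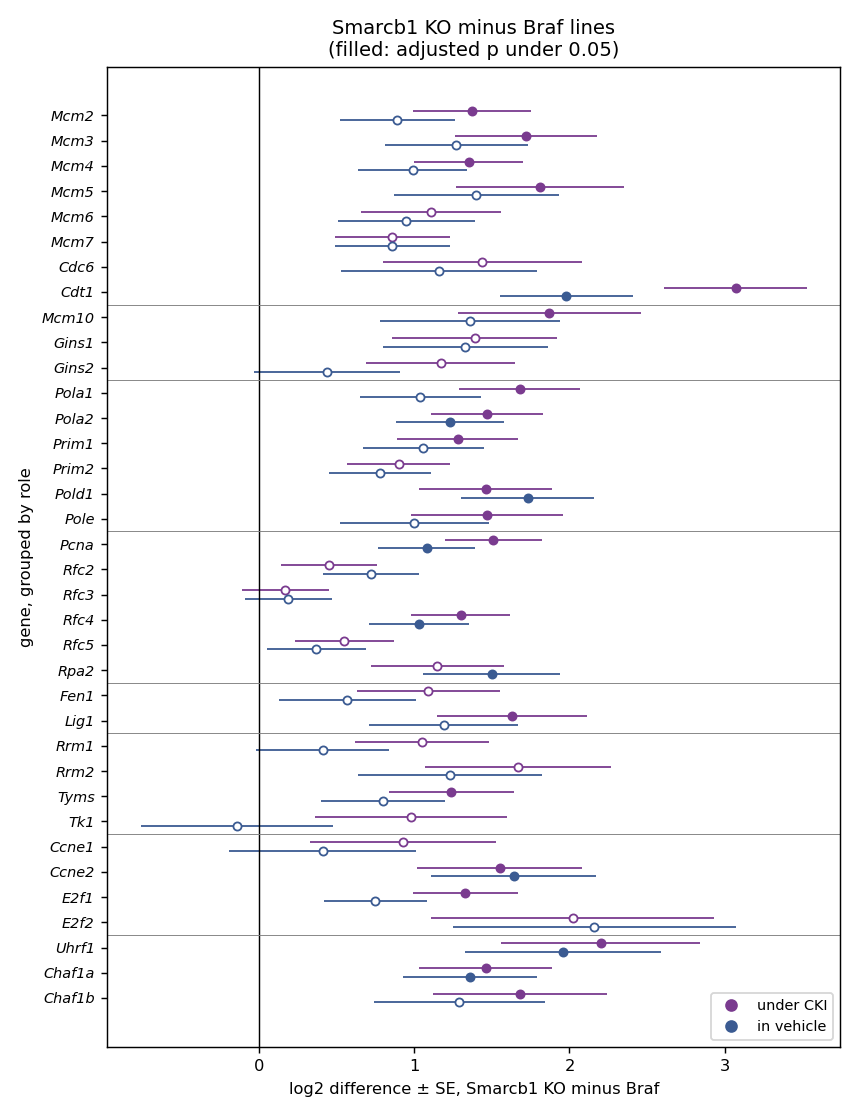
Log2 difference of Smarcb1 KO minus Braf lines, ± SE, for each of the 36 genes under CKI and in vehicle. Filled points mark an adjusted p under 0.05 (20 under CKI, 9 in vehicle); Cdt1 lies farthest right under CKI at 3.07, and Tk1 in vehicle, at -0.14, is the one estimate below 0.

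Leaving out single lines moved these counts. Counts from fits with a line left out, or limited to the libraries compared, are given here without the share of all genes called. Without BS53958 the count under CKI was 3, and without BS53736 it was 22; without the Braf lines B47275, B48051 or B52482 it was 6, 9 or 11. In vehicle, leaving out 1 line gave between 1 gene, without B52482, and 7 genes, without BS53958. Without both BS53958 and BS53965 the Smarcb1 KO arm is the 1 line BS53736, assumed to vary like the other groups. That fit gave median differences of 0.72 under CKI and 1.08 in vehicle, beside 1.38 and 1.05 with all lines. A fit limited to the libraries compared called 2 under CKI. Other markers differed between these lines as well. Summed over 5 epithelial markers, Smarcb1 KO lines held 2.13, 209 and 1.19 CPM under CKI and Braf lines 1680, 6460 and 208 CPM. The groups overlapped, with 209 CPM in BS53958 and 208 CPM in B52482. Summed over 5 endothelial markers, the BS53965 libraries held 57.3 CPM under CKI and 666 CPM in vehicle, of which Cdh5 gave 57 and 659 CPM, and Emcn was at 0 in both. The other Smarcb1 KO and Braf libraries held 13.1 CPM or less of these. Their part in the difference was not tested. Of 36 further replication genes, 16 were higher in Smarcb1 KO lines under CKI and 17 in vehicle, with 0 lower in either. Pole3, a polymerase subunit, differed by 1.06 ± 0.18 under CKI and Orc2, an origin recognition subunit, by 1.45 ± 0.27. Of 16 mitosis genes, 10 were higher under CKI, among them Aurkb at 2.05 ± 0.60, and 0 were called in vehicle by edgeR, with 0 at an unadjusted p under 0.05. Of the G1/S control genes, Rb1, which restrains E2F, differed by 1.67 ± 0.34 under CKI (adjusted p = 0.00375), Cdk4 by 0.88 ± 0.23, Myc by 1.91 ± 0.53 and the CDK inhibitor Cdkn2d by 1.56 ± 0.48.

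Loss of Arid1a or Arid2 gave no such call. In vehicle, 0 of 36 genes were called in Arid1a KO against Braf lines (0.979% of all genes were called higher; 0 of 36 at an unadjusted p under 0.05) and 0 in Arid2 KO against Braf lines (0.0064%; 1 of 36). Under CKI the counts were 0 for Arid1a KO (0.243%; 1 of 36) and 0 for Arid2 KO (0.0192%; 3 of 36). DESeq2 called 0 genes in all of these 4 comparisons. The median differences were 0.14 for Arid1a KO and 0.19 for Arid2 KO in vehicle, and 0.01 for Arid1a KO and 0.66 for Arid2 KO under CKI. Without AB52980 the last of these was 0.07, and without AB51189 the vehicle median of Arid2 KO was -0.17.

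Against WT libraries, the Braf lines held far more of the replication transcripts. In vehicle, 32 of 36 genes were higher in Braf lines and 0 lower, beside 23.7% of all 16821 genes of that fit called higher, with a median of 2.20. Under CKI, 25 of 36 were still higher than in WT and 0 lower, beside 21.2% of all genes, with a median of 1.33. Both comparisons use the same 3 WT libraries. Pole had 69.5, 58.7 and 45.9 CPM in Braf lines in vehicle, 26.2, 25.4 and 29.8 CPM in Braf lines under CKI, and 0.673, 0.702 and 1.88 CPM in WT. It differed by 5.74 ± 0.62 in vehicle (adjusted p = 1.4e-06) and by 4.64 ± 0.59 under CKI (adjusted p = 8.65e-06). The reductase subunit Rrm2 differed by 5.61 ± 0.68 in vehicle and 4.55 ± 0.65 under CKI. Not called in vehicle were Prim1 at 0.78 ± 0.37, Pold1 at 0.95 ± 0.40, Rpa2 at 0.41 ± 0.41 and E2f2 at 0.64 ± 0.84. Pcna passed in vehicle, at 1.55 ± 0.30 (adjusted p = 0.000347), but not under CKI, at 0.63 ± 0.29 (adjusted p = 0.0881). The change between these, CKI minus vehicle in Braf lines, was -0.91 ± 0.31 (adjusted p = 0.284).

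The WT libraries differ from the lines in kind. All 7 thyroid follicular markers exceeded 1 CPM in each, as did 5 of 5 adipocyte, endothelial, fibroblast and skeletal muscle markers and 4 of 5 leukocyte markers. Their sums lay between 923 and 2780 CPM for adipocyte, 448 and 667 CPM for endothelial, 1280 and 2740 CPM for fibroblast, 1520 and 3250 CPM for skeletal muscle and 731 and 1180 CPM for leukocyte markers. In Braf lines the adipocyte sum reached at most 0.207 CPM. The label gives WT the same source as the lines, and these markers go against it. The genotype of the Braf lines and the kind of sample cannot be told apart in this comparison. Of the further replication genes, 24 were higher in Braf lines in vehicle and 1 was lower. The lower one was Gmnn, which blocks Cdt1, at -1.65 ± 0.38 (adjusted p = 0.00154), named here after its values were seen.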

How the data were processed

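RNA was measured in 27 libraries, extracted with TRIzol and prepared with a TruSeq kit, per the labels' protocols. The table deposited by the authors gives a raw read count for each gene symbol and library. The submitters' processing notes name STAR 2.4 and HTSeq 0.6.1, along with DESeq2 and mm9, without saying which step each served; annotation and strand setting are unstated in the sources used here.

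Counts were fitted in R 4.3.3 with edgeR 4.0.16 (filterByExpr, TMM, quasi-likelihood F test, 1 mean per group) and p-values were adjusted by Benjamini-Hochberg over every gene in the fit. A fit of 15634 genes held the 24 libraries of tumor lines, and WT entered only a fit of all 27 libraries with 16821 genes. SE was derived from the F statistic. The members, gene lists, tests and alternatives were chosen with earlier results of these data known. Named genes were all 36 members, the 3 targeted genes and, of each other list, up to 4 called genes with the smallest adjusted p. The alternatives were RLE size factors, DESeq2 1.42.0, no filter, a filter of at least 1 CPM in 6 libraries, only the compared groups, thinning to the shallowest library, lines left out, and the line as a block. Vehicle and CKI libraries of a line share its name in the labels, and the deviations of each pair from their group means had a correlation between 0.259 and 0.773 over genes. The fit was tested on simulated data. Motifs were matched in RefSeq promoter windows, and exon overlaps came from the GENCODE annotation of GRCm38.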

Additional observations from a re-analysis of the deposited data

How the results depend on the processing

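No gene among the 36 was called in the opposite direction under any setting run. Counts in this section are given without the share of all genes called in each fit. For genes called lower under CKI in Arid1a KO lines (5), the count was 3 with no filter, 10 with only the compared groups, 12 with the line as a replicate block and 9 with DESeq2, and 0 to 1 with a line left out. In Arid2 KO lines (0) it was 1 with the block and 1 with DESeq2, and in Braf lines (0) it was 1 with DESeq2. The mean over genotypes (27) gave 18 to 35 with a line left out, 26 without BS53958 and BS53965, and 28 with the block as well. The count of genes higher in Smarcb1 KO than in Braf lines in vehicle (9) was 5 with no filter and 14 with DESeq2. It was 1 to 7 with a line left out. Under CKI (20) it was 2 with only the compared groups and 3 to 22 with a line left out. Leaving out both BS53958 and BS53965 keeps 1 Smarcb1 KO line, assumed to vary like the other groups. For that fit only the median difference is given, which under CKI (1.38) was 0.72. The Braf and WT comparison gave 31 to 34 genes in vehicle (32) and 17 to 20 under CKI (25) with 1 line or library left out. With a line left out, the median difference from Braf lines lay between -0.17 and 0.34 for Arid2 KO in vehicle (0.19), between 0.07 and 1.01 for Arid2 KO under CKI (0.66), and between 0.88 and 1.25 for Smarcb1 KO in vehicle (1.05). The block changed no other count by over 1.5 times. RLE size factors moved the median of all genes to -0.14 in Braf vehicle minus WT, where it was 0.02, and to -0.09 under CKI, where it was 0.05. The cause of these shifts was not tested. The 2884130 counts of BS53965 under CKI limit its values: Fen1 rests on 4 counts there.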

Other observations

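Apart from the 36 genes, some regulators of the same step moved the other way, as did 2121 of all 15634 genes tested. Under CKI, averaged over genotypes, the genes of the G1/S control list that rose were Ccnd2 at 1.04 ± 0.34, Ccnd3 at 0.95 ± 0.15, Tfdp2 at 0.88 ± 0.26, the pocket protein Rbl2 at 0.68 ± 0.15, the CDK inhibitor Cdkn1b at 0.67 ± 0.24 and Rb1 at 0.50 ± 0.17, with edgeR adjusted p-values between 0.000347 and 0.0496. E2f8, a repressor that E2F activity is known to induce, fell by 1.91 ± 0.45. It had 5.97, 18 and 13.9 CPM in Arid1a KO lines under CKI, against 83.2, 125 and 225 CPM in vehicle. In BS53958 it had 245 CPM under CKI, against 226 CPM in vehicle. These genes, other than Ccnd3, were named after their values were seen.

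Arid1a, a targeted gene in other lines, was high in Smarcb1 KO lines, with 315 ± 37 CPM under CKI and 287 ± 59.4 CPM in vehicle, against 127 ± 11.3 CPM in Braf lines under CKI and 132 ± 3.86 CPM in vehicle (SD, n = 3 each). It was read in this comparison after its values were seen.

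The processed pseudogene Pcna-ps2 was uneven between lines, and the counting may have split reads between it and Pcna. It had 323 counts under CKI and 539 in vehicle in BA47473, 320 and 505 in BA49112, and 264 and 495 in BS53736, with CKI first in each pair. BS53958 had 98 counts under CKI and 27 in vehicle. The remaining 19 libraries held between 1 and 21 counts, while Pcna itself held between 521 and 6366 counts over all 27 libraries.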
